A study of Homo sapiens with 60 samples.

Results

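Transcripts of 9 glutathione transferase genes were followed in HepG2 cells, an established human hepatocellular carcinoma line, across 8 herbal extracts at 3 doses each and vehicle. The genes were taken by symbol (GSTA1, GSTA2, GSTA4, GSTK1, GSTO1, GSTZ1, MGST1, MGST2 and MGST3) and matched to Ensembl identifiers. They are 9 of the 60675 gene identifiers in the count table, and all 9 were among the 16982 genes that passed the filter on low counts and were tested. Cells were harvested 24 h after treatment, and RNA was sequenced in 60 libraries. The treatments were ethanol extracts, 4 of single herbs (Menthae Herba, Saposhnikoviae Radix, Aucklandiae Radix, Polygalae Radix) and 4 of decoctions that combine herbs (Guibi-tang, Saengmaek-san, Soyo-san, Okbyeongpung-san). Polygalae Radix was given at 250 (high), 50 (medium) and 10 (low) ug/mL, Aucklandiae Radix at 280, 56 and 11.2 ug/mL, and every other extract at 500, 100 and 20 ug/mL. The high dose was the concentration giving 20% inhibition where that lay under 500 ug/mL, which applies to Polygalae Radix and Aucklandiae Radix. Vehicle was DMSO, at 0.1% per the sample labels and 2% per the series text, and the files do not settle which. Each group held 3 libraries in vehicle, Guibi-tang, Saengmaek-san, Menthae Herba and Saposhnikoviae Radix, 2 in Soyo-san, Polygalae Radix and Aucklandiae Radix, and 1 in Okbyeongpung-san. The labels do not say that replicates came from separate cultures, so the spread that p-values are measured against may be technical only.

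Glutathione transferases join the thiol of glutathione to reactive, fat-soluble compounds, so that drugs, plant chemicals and products of lipid oxidation can be exported from the cell. The cytosolic alpha class (GSTA genes) is a hallmark of the liver, the omega, zeta and kappa enzymes have more specialised tasks, and the MGST genes encode membrane-bound enzymes of the MAPEG family. Many genes of the system respond to NRF2, a transcription factor released when reactive compounds modify its partner KEAP1, and which binds a sequence called the antioxidant response element (ARE).

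GSTA1 and GSTA2 are neighbours on the reverse strand of chromosome 6, GSTA1 at chr6:52791664-52803910 and GSTA2 at chr6:52750089-52763569 (GRCh38, GENCODE 29). They are near copies, and this limits what the counts can separate: 110 stretches of 100 bases, the read length, occurred in transcripts of both, 9.85% of those in GSTA1 and 9.06% of those in GSTA2. The other 7 members shared none with any gene. Their upstream regions are also near copies, with 97.2% identical bases over the 250 bases before the RefSeq start, against at most 50.8% for any other pair of members. The stretches below are shown because these 2 genes moved together in the results that follow. They are given 5′ to 3′ from RefSeq (GRCh38.p14), for GSTA1 chr6:52803911-52804066 and for GSTA2 chr6:52763570-52763725, both on the minus strand. Capitals mark the 4 bases that differ here, of 7 in the whole window.
GSTA1: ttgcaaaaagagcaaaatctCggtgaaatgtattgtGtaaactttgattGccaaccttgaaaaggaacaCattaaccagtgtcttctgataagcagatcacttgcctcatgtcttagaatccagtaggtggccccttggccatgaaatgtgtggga
GSTA2: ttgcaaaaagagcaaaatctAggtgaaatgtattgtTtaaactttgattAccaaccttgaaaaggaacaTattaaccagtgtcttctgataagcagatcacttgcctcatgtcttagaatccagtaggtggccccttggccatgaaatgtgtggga

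The 250 bases before the RefSeq start were searched on both strands for the letters TGACNNNGC, the core of the ARE, and GCGTG, the core of the element bound by the AHR receptor for aromatic pollutants. Among 35116 promoters, 10.9% held the first and 32.2% the second. Of the 8 members with a promoter in the table, GSTO1 had 2 ARE cores and GSTA4 had 1, while GSTZ1 had 2 AHR element cores and MGST3 had 1. Neither set of letters was in the windows of GSTA1, GSTA2, GSTK1 or MGST1. The stretch of GSTO1 with its first match, chr10:104254656-104254685 on the plus strand, follows with the match in capitals. A match is a description of the letters and not a measured binding site.
GSTO1: ggcggagggaTGACTGAGCatttataactt

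In vehicle, CPM values (each gene's count relative to the scaled library total) were divided by transcript length so that the members could be compared with each other. The length was the median over a gene's annotated coding transcripts, from 1 in GSTA1 and GSTA2 to 11 in GSTZ1. Levels per kb depend on this choice of length, and no other was tried, so the order of close members is uncertain. MGST1 was highest at 159 CPM per kb, with a range of 142 to 183 over the 3 libraries. GSTO1 followed at 56.5, then MGST2 at 48.3 and GSTK1 at 48, whose ranges overlapped. GSTA1 stood at 38.8, MGST3 and GSTA4 at 20.4 and 20.2 with overlapping ranges, GSTZ1 at 11.5 and GSTA2 last at 4.17. Among relatives outside the 9, GSTP1, the pi-class enzyme of many tumours, averaged 0.016 CPM over all libraries, and GSTM1, which is deleted in many people, 0.0647 CPM. All 8 hepatocyte markers were above 1 CPM, with sums of 15900 to 51700 CPM per library. Markers of other cells were low, with stromal sums of 4.91 to 16.9 CPM and endothelial sums of 2.09 to 6.36 CPM. Of 6 blood markers 2 were above 1 CPM, nearly all of it LYZ at a mean of 1130 CPM, and HBB was 0 in every library.

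Library totals lay between 17.5 M and 38.9 M counts, and the median was 23.7 M. The sets named below are the first part of each library's sample code, 11 to 14 for extracts and D1 for vehicle. The labels do not say what this part stands for, and every title names the same batch, D. Every dose comparison below was made within an extract, with its own low dose as the reference, and tested with edgeR's quasi-likelihood test in a fit of 57 libraries. A gene passed the test at a Benjamini-Hochberg adjusted p under 0.05 over the 16982 genes. Fold changes are on the log2 scale with their standard errors (SE), and the background is the percentage of all tested genes that passed in the same comparison.

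The alpha-class genes GSTA1 and GSTA2 gave the widest range of responses, from several-fold higher with Guibi-tang to several-fold lower with the high dose of Polygalae Radix. GSTA1 encodes the main liver glutathione transferase, which also reduces lipid hydroperoxides and handles drugs such as busulfan, and GSTA2 is its close relative with similar activities. With Guibi-tang, GSTA1 was 57.3, 58.1 and 60.1 CPM at the low dose, 101, 99.6 and 89.5 at the medium dose, and 197, 156 and 192 at the high dose. The 3 doses did not overlap, and replicate 2 of the high dose was the lowest of its group. GSTA2 stood at 10.1, 8.81 and 10.7 CPM at the low dose, 18.5, 17.6 and 16.1 at the medium dose, and 61.2, 50.1 and 58.9 at the high dose, again with no overlap. From low to high dose, GSTA1 rose by 1.63 (SE 0.07, edgeR adjusted p = 1.51e-24) and GSTA2 by 2.52 (SE 0.09, edgeR adjusted p = 5.46e-26). That is 3.1-fold and 5.72-fold, and GSTA2 had rank 37 from the top of all 16982 genes. Most of the rise of GSTA2 lay between medium and high dose, at 1.71, against 0.81 between low and medium. For GSTA1 these steps were 0.91 and 0.72. Each of these 4 steps passed the test, the high against medium contrast having been chosen after the values were seen. Without replicate 2 of the high dose, the low to high change was 1.73 for GSTA1 and 2.6 for GSTA2.

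Aucklandiae Radix raised both genes at its medium dose and lowered them at its high dose, so the response turned with dose. GSTA1 was 72.9 and 70.6 CPM at the low dose, 186 and 175 at the medium dose, and 16.4 and 21.1 at the high dose. GSTA2 was 16.3 and 15.4 CPM, then 58 and 54.8, then 4.64 and 8.04. In both genes every medium library was above every low library, and every high library below. From low to medium dose GSTA1 rose by 1.33 (SE 0.08, edgeR adjusted p = 8.91e-17) and GSTA2 by 1.83 (SE 0.11, edgeR adjusted p = 8.41e-17), with rank 88 from the top for GSTA2. From medium to high dose, GSTA1 fell by 3.27 and GSTA2 fell by 3.15 (SE 0.09 and 0.12, both passing the test in that added contrast). High against low dose left GSTA1 at -1.94 (SE 0.1) and GSTA2 at -1.33 (SE 0.14), where 69.4% of all genes passed the test in either direction. Mitochondrially encoded RNA moved with dose in these libraries, from 12.4% and 14% of counts at the low dose to 8.02% and 8.17% at the high dose, the lowest of all 60, and its part in the result was not tested.

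The low dose of Aucklandiae Radix, 11.2 ug/mL, was already high in both genes relative to the low doses of the other extracts, which ranged from 38.9 CPM in Polygalae Radix to 58.5 CPM in Guibi-tang for GSTA1. In a contrast chosen after the values were seen, against the mean of the other 6 tested low doses, GSTA1 was higher by 0.62 (SE 0.06, edgeR adjusted p = 7.7e-10) and GSTA2 by 1.06 (SE 0.09, edgeR adjusted p = 1.48e-11). MGST1 was higher by 0.31 in the same contrast. These were 3 of 9 members, where 0.754% of all genes passed. The doses behind this contrast differ (10 to 20 ug/mL in the others), and the difference between extracts of different sets includes any difference between the sets. Without replicate 2 of the Aucklandiae Radix low dose, MGST1 did not pass (0.25, edgeR adjusted p = 0.386).

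With Polygalae Radix, GSTA1 and GSTA2 dropped at the high dose, and neither passed the test at the medium dose. GSTA1 was 36.4 and 41.3 CPM at the low dose, 36.7 and 37.2 at the medium dose, and 11.2 and 11.7 at the high dose. GSTA2 went from 6.04 and 5.87 CPM to 5.06 and 5.19 and then to 0.843 and 1.38, the lowest values of the series. Both of its medium libraries lay below both low libraries. High against low dose, GSTA1 fell by 1.78 (SE 0.1) and GSTA2 fell by 2.44 (SE 0.21), while at the medium dose the differences were -0.09 and -0.21 and did not pass. Mitochondrially encoded RNA was 12.9% and 12% of counts at the low dose and 17.5% and 17.7% at the high dose, where all 9 members fell, and its part in the result was not tested.

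The remaining extracts moved the pair less. At 500 ug/mL against 20 ug/mL, Menthae Herba lowered GSTA1 by 1.2-fold, from 48.1, 48.7 and 44.7 CPM to 41.6, 40.4 and 36.5 (log2 -0.26, SE 0.07, edgeR adjusted p = 0.00627). GSTA2 fell by 0.52 with it. At the medium dose of Menthae Herba both genes lay above every low library, at 51.7 to 54.1 CPM for GSTA1 and 8.3 to 9.23 CPM for GSTA2. Neither step from low to medium dose passed. Soyo-san lowered GSTA1 from 43.9 and 45.6 CPM to 34.2 and 31.6 (log2 -0.45, SE 0.09, edgeR adjusted p = 0.00123). Saposhnikoviae Radix raised GSTA1 from 48.6, 41.3 and 43.9 CPM to 53.6, 56.4 and 54.1 (log2 0.3, SE 0.07, edgeR adjusted p = 0.026). In each of these 3 extracts the low and high libraries of GSTA1 did not overlap. GSTA2 did not pass in Soyo-san (7.09 to 7.75 CPM at the low dose, 5.86 to 6.2 at the high dose). It did not pass in Saposhnikoviae Radix either, where the ranges overlapped (7.44 to 8.97 CPM and 7.94 to 9.9). Single libraries decided the smaller calls: GSTA1 did not pass in Menthae Herba without replicate 3 of the high dose (edgeR adjusted p = 0.0602) or in Soyo-san without replicate 2 of the high dose (edgeR adjusted p = 0.0886). In Saposhnikoviae Radix the GSTA1 call was lost without any of high replicates 1, 2 and 3 or low replicates 2 and 3, with differences of 0.24 to 0.31. In Saengmaek-san, GSTA1 and GSTA2 differed by 0.26 and 0.41 and did not pass (edgeR adjusted p = 0.0925 and 0.115). Okbyeongpung-san had 1 library per dose and no test, and its GSTA1 read 47.4, 56.8 and 72.5 CPM from low to high dose.

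**Figure D1:**
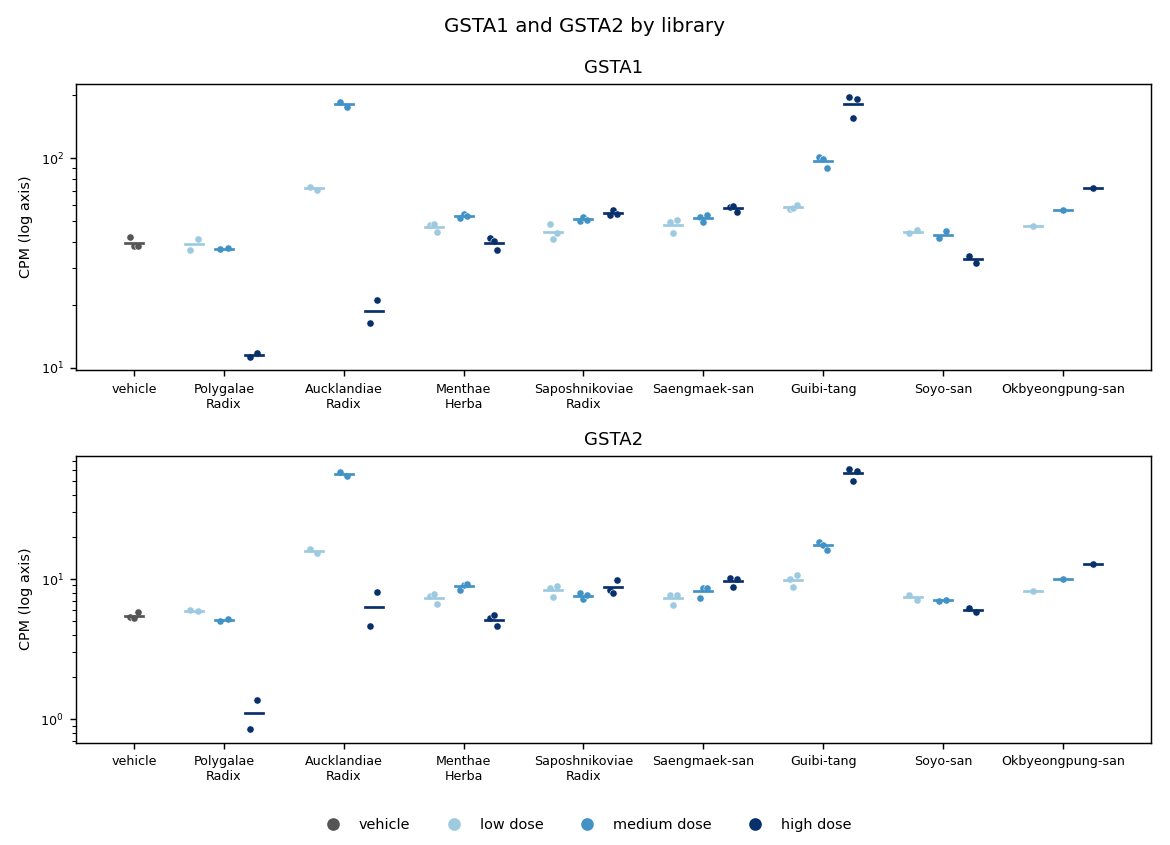
GSTA1 and GSTA2 in CPM on a log axis for each of the 60 libraries (points), by extract and dose (colour), with the group mean as a bar. The Guibi-tang points climb from about 58.5 to 182 CPM in GSTA1, while the Aucklandiae Radix points peak at the medium dose and drop to 16.4 and 21.1 CPM at the high dose.

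Ordered by level at the high dose, GSTA1 was highest in Guibi-tang (155.6 to 196.7 CPM), far from the next, Okbyeongpung-san at 72.5. Saengmaek-san (55.2 to 59.4) and Saposhnikoviae Radix (53.6 to 56.4) overlapped, as did Menthae Herba (36.5 to 41.6) and vehicle (38.2 to 42). Soyo-san, Aucklandiae Radix and Polygalae Radix followed, each below the last without overlap.

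The balance between the near copies differed between groups. GSTA2 made up 12.2% ± 1 (SD, n = 3) of the GSTA1 and GSTA2 counts in vehicle, and 14.4% ± 1.1 (SD, n = 3) at the low dose of Guibi-tang. At its high dose the share was 23.8% ± 0.47 (SD, n = 3), and the 2 ranges, 13.2% to 15.1% and 23.4% to 24.3%, did not overlap. Aucklandiae Radix had 18.1% ± 0.28 (SD, n = 2) at the low dose and 23.8% ± 0.063 (SD, n = 2) at the medium dose. At its high dose the share was 24.8% ± 3.9 (SD, n = 2), the highest of all groups, with a range of 22.1% to 27.6% that takes in the medium-dose values, although both genes fell steeply between these doses. The share was lowest in the high dose of Polygalae Radix, at 8.73% ± 2.5 (SD, n = 2). Counts for both genes were fractional in 59 of 60 libraries, so reads that fit both copies were divided between them by an estimate. MGST2 also had fractional counts, in 45 of 60 libraries, although it shared no stretch of 100 bases with another gene, so its counts are partly estimates too, while the other 6 members had none. With the counts of GSTA1, GSTA2, GSTA3 and GSTA5 summed, the change was 1.8 for Guibi-tang high against low dose, 1.44 for Aucklandiae Radix medium against low, and -1.8 for Aucklandiae Radix high against low, with the directions of the separate counts. For Saposhnikoviae Radix high against low dose, the summed change of 0.26 did not pass (edgeR adjusted p = 0.0775), while GSTA1 alone did.

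GSTA4, at chr6:52977948-52995378, takes up the toxic aldehydes that form when membrane lipids oxidise. It did not follow GSTA1 in Guibi-tang: its low-dose libraries were 20.9, 19 and 21 CPM and its high-dose libraries 21.7, 19.4 and 21.4 (log2 0.03, 95% interval -0.09 to 0.15). It fell by 1.34 with Polygalae Radix, from 18.7 and 17.5 CPM to 7.22 and 7.08, and by 1.22 with Aucklandiae Radix, from 20.4 and 20.4 CPM to 8.15 and 9.45. At the medium dose of Aucklandiae Radix it was 26.2 and 24.4 CPM, higher by 0.31 (SE 0.07, edgeR adjusted p = 0.00491), a call lost without replicate 2 of the medium dose (0.25, edgeR adjusted p = 0.156) and without either low library. Menthae Herba lowered it by 0.2 (SE 0.06, edgeR adjusted p = 0.0118), a call lost without replicate 2 of the high dose or replicates 2 or 3 of the low dose.

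GSTO1 (chr10:104235356-104267459) encodes the omega enzyme, which reduces dehydroascorbate and removes glutathione from proteins. With Menthae Herba it was 80.3, 83.6 and 83.4 CPM at the low dose and 100, 104.6 and 99.2 at the high dose, with no overlap (log2 0.29, SE 0.07, edgeR adjusted p = 0.00111). With Guibi-tang it was 76.8, 85.2 and 79.1 CPM at the low dose and 107, 86.7 and 114 at the high dose. Replicate 2 sat just above the highest low-dose library, and the difference was 0.35 (SE 0.07, edgeR adjusted p = 6.13e-05). Polygalae Radix lowered GSTO1 stepwise, from 86.3 and 88.3 CPM to 69.2 and 73.2 at the medium dose and 46.7 and 51 at the high dose (log2 -0.3 and -0.85). The medium-dose call did not hold without replicate 2 of the medium dose (-0.26, edgeR adjusted p = 0.3) or without either low library. In Aucklandiae Radix, where 7 other members fell, GSTO1 differed by -0.02 between high and low dose (95% interval -0.19 to 0.16).

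GSTZ1 (chr14:77320884-77331597) encodes maleylacetoacetate isomerase, a step of tyrosine breakdown, and lies opposite POMT2, so strand-blind counting could mix their reads. The strand setting is not given in the sources used here. It was lower at the high doses of Polygalae Radix, from 12.1 and 12.2 CPM to 5.61 and 5.29 (log2 -1.16, SE 0.12), and of Aucklandiae Radix, from 11.6 and 11.7 CPM to 7.32 and 8.41 (log2 -0.57, SE 0.12, edgeR adjusted p = 2.23e-05). In the other 5 tested extracts its high against low difference lay between -0.21 and 0.04 and did not pass.

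GSTK1 (chr7:143244093-143270854) encodes the kappa enzyme of mitochondria and peroxisomes. It had its largest change with Aucklandiae Radix, from 41.1 and 41.2 CPM at the low dose to 14.1 and 15.7 at the high dose (log2 -1.47, SE 0.08, edgeR adjusted p = 4.83e-22). At the medium dose it was 39.8 and 38.7 CPM and did not pass (log2 -0.07). Polygalae Radix lowered it to 22.8 and 18.2 CPM, by 0.95 (SE 0.07). With Menthae Herba the fall was 0.15 (SE 0.06, edgeR adjusted p = 0.0431), a call lost without any of high replicates 1, 2 and 3 or low replicates 1 and 3.

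**Figure D2:**
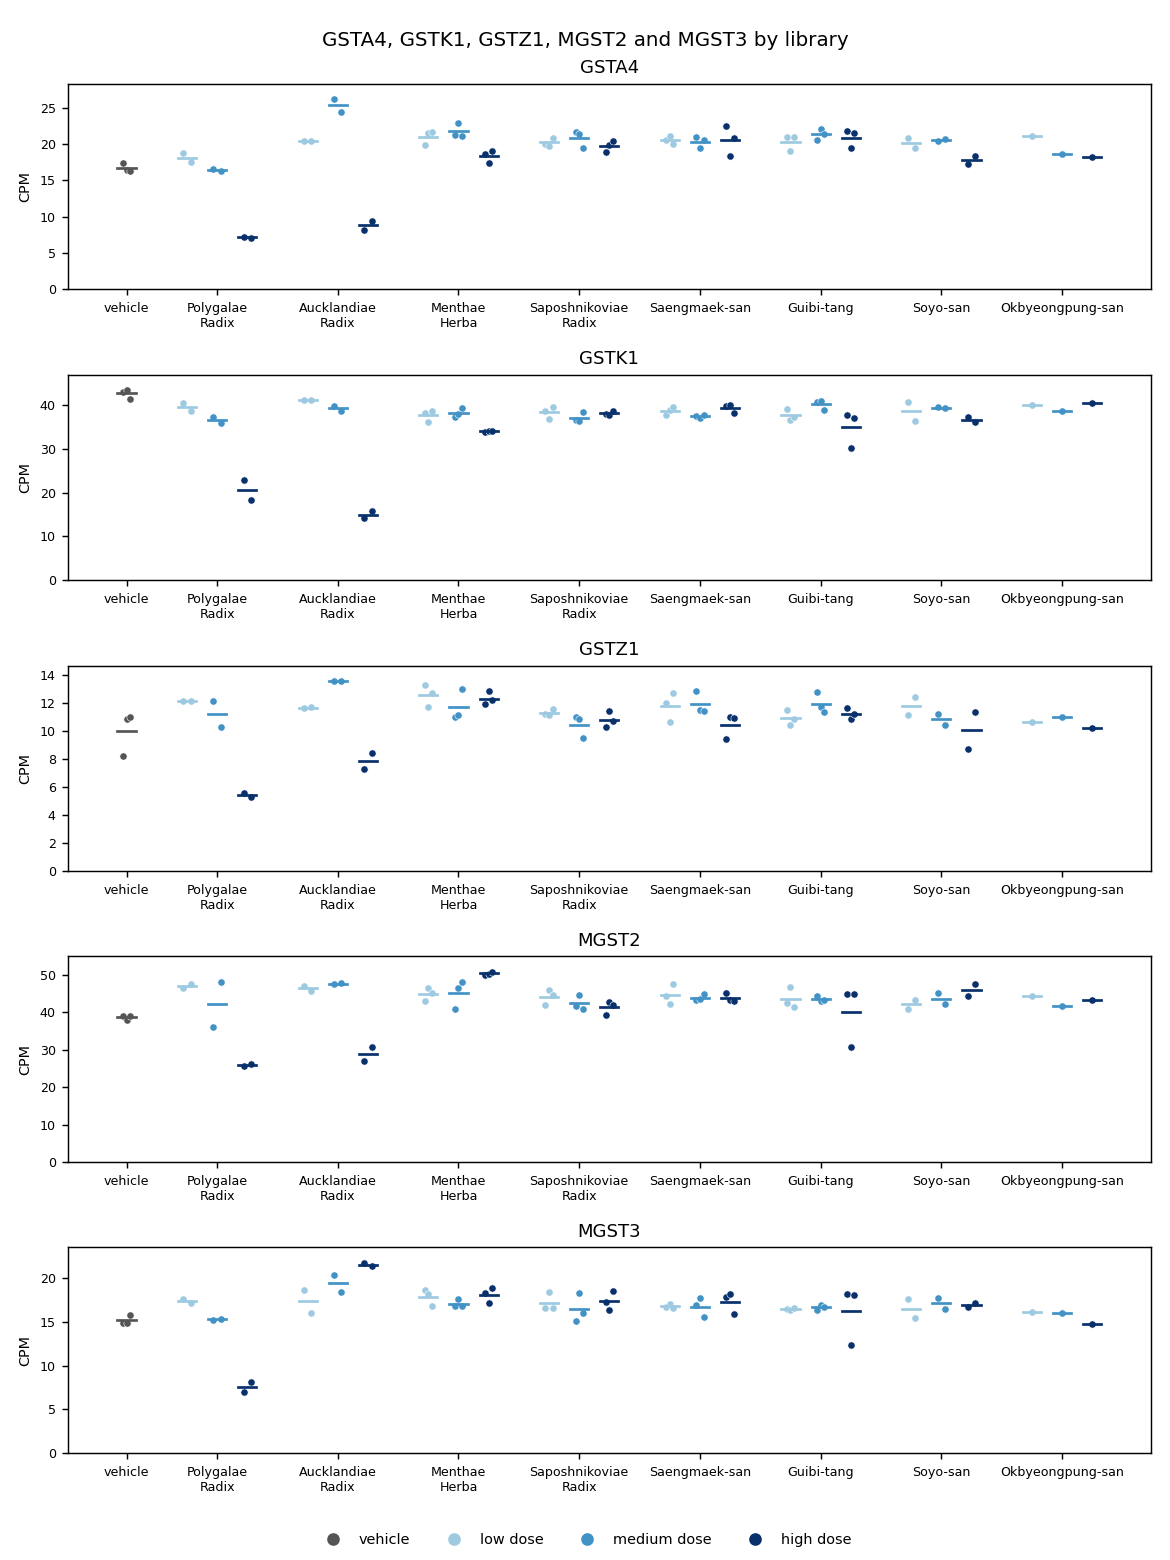
GSTA4, GSTK1, GSTZ1, MGST2 and MGST3 in CPM for each library (points), by extract and dose (colour), with group means as bars. The high doses of Polygalae Radix and Aucklandiae Radix lie below the rest in the GSTA4, GSTK1 and MGST2 panels, in the GSTZ1 panel 1 vehicle library at 8.25 CPM lies among them, and in the MGST3 panel Aucklandiae Radix lies highest, at 21.8 and 21.3 CPM.

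MGST1 (chr12:16347142-16609259), a membrane enzyme of the endoplasmic reticulum and outer mitochondrial membrane that conjugates glutathione and reduces lipid peroxides, passed the test between high and low dose in all 7 tested extracts. It was higher in 5 and lower in 2. With Menthae Herba it read 129, 128 and 131 CPM at the low dose, 147, 147 and 151 at the medium dose and 197, 193 and 199 at the high dose, groups that did not overlap (log2 0.6, SE 0.06, edgeR adjusted p = 2.76e-10). With Guibi-tang it read 140, 143 and 141 CPM, then 183, 180 and 180, then 234, 188 and 230 (log2 0.62, SE 0.06, edgeR adjusted p = 4.76e-11). Each step upward held without overlap, and replicate 2 of the high dose was again the lowest of its group.

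Soyo-san raised MGST1 from 133 and 132 CPM to 182 and 180 (log2 0.44, SE 0.08, edgeR adjusted p = 0.000117). Saposhnikoviae Radix and Saengmaek-san raised it by 0.3 (edgeR adjusted p = 0.00936) and 0.31 (edgeR adjusted p = 0.00735), with low libraries of 119 to 138 CPM and high libraries of 153 to 164. These 2 calls were lost without some single libraries: high replicates 1 or 3 or low replicate 1 in Saposhnikoviae Radix (0.25 to 0.28), and high replicate 1 or low replicate 3 in Saengmaek-san (0.26 to 0.29). Okbyeongpung-san read 125, 146 and 187 CPM from low to high dose, in single libraries. Polygalae Radix and Aucklandiae Radix lowered MGST1 at the high dose, to 77.2 and 92.5 CPM (log2 -0.71, SE 0.08) and to 87.1 and 96.3 CPM (log2 -0.86, SE 0.08). At the medium dose of Aucklandiae Radix it was 213 and 197 CPM against 173 and 158 at the low dose, higher by 0.3 (edgeR adjusted p = 0.0115), which did not pass without replicate 2 of the medium dose (0.25, edgeR adjusted p = 0.23) or replicate 3 of the low dose (0.24, edgeR adjusted p = 0.238).

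**Figure D3:**
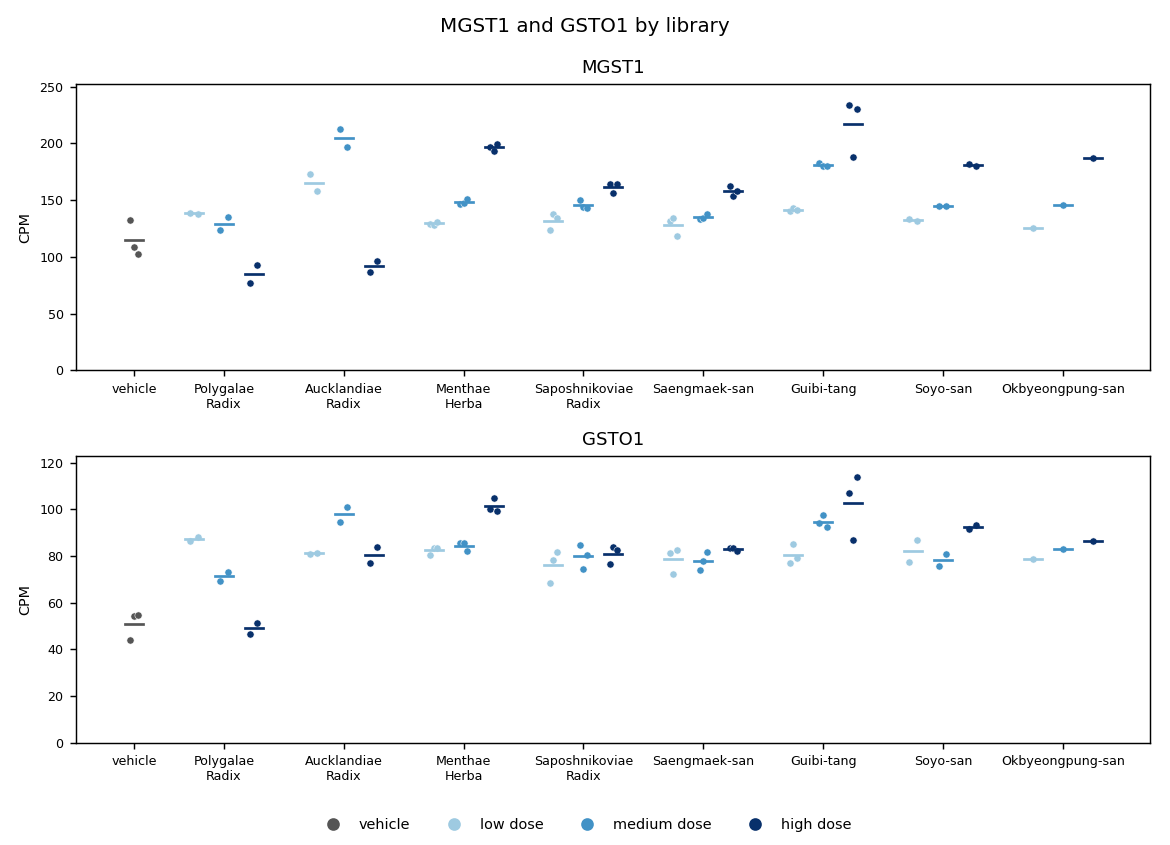
MGST1 and GSTO1 in CPM for each library (points), by extract and dose (colour), with group means as bars. MGST1 is highest at the high dose in 6 of 8 extracts, and the 3 vehicle points of GSTO1, at 44 to 54.6 CPM, lie below every treated library but those at the high dose of Polygalae Radix.

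MGST2 (chr4:139665768-139740745) and MGST3 (chr1:165630861-165661796) belong to the same family and can form a leukotriene from glutathione and reduce lipid peroxides. MGST2 fell by 0.88 with Polygalae Radix, from 46.6 and 47.7 CPM to 25.7 and 26.1, and by 0.69 with Aucklandiae Radix, from 47.1 and 45.8 CPM to 27 and 30.7. MGST3 fell by 1.21 with Polygalae Radix, from 17.6 and 17.1 CPM to 6.93 and 8.17. It was the sole member that was higher at the high dose of Aucklandiae Radix, at 21.8 and 21.3 CPM against 18.7 and 16 (log2 0.31, SE 0.1, edgeR adjusted p = 0.00658), and this call was lost without replicate 3 of the low dose (0.19, edgeR adjusted p = 0.172). In Guibi-tang, replicate 2 of the high dose had 30.9 CPM of MGST2 and 12.3 CPM of MGST3, below the other high-dose libraries at 44.8 and 44.8 CPM and 18.2 and 18.1 CPM. Neither gene passed the test there with or without it.

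Counted over all 9 members, the high dose of Polygalae Radix was lower in all 9, where 33% of all genes were lower, 31.1% were higher and 64.1% passed in either direction. The members' median change was -1.16. Aucklandiae Radix was lower in 7 and higher in 1 (background 35.5% lower and 33.9% higher, members' median -0.86). In these 2 extracts most genes of the table passed in one direction or the other, and the all-gene median was -0.01 and -0.02. Guibi-tang was higher in 4 and lower in none, with backgrounds of 16.8% and 17.5% (34.3% in either direction), and Menthae Herba was higher in 2 and lower in 4, with backgrounds of 10.8% and 12.5% (23.3% in either direction). Soyo-san was higher in 1 and lower in 1, with backgrounds of 2.13% and 1.83% (3.95% in either direction). Saposhnikoviae Radix was higher in 2, where 0.389% of genes were higher and 0.442% lower (0.83% in all), and Saengmaek-san in 1, where 0.206% were higher and 0.23% lower (0.436% in all). These small counts rested on single libraries: Saposhnikoviae Radix had 0 without high replicate 1 or 3 and 1 without high replicate 2 or any low library, Saengmaek-san had 0 without high replicate 1 or low replicate 3, and Soyo-san had 1 without high replicate 2. Members' medians in these 5 extracts lay between -0.08 and 0.04. At the high dose of Polygalae Radix and of Aucklandiae Radix all 8 hepatocyte markers fell as well (medians -1.64 and -0.38), as they did in Guibi-tang (-0.56), and 6 of 8 fell in Menthae Herba. Their part in the members' changes was not tested, and in bulk RNA fewer cells of a kind and less RNA per cell cannot be told apart.

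At the medium dose the picture was narrower. Aucklandiae Radix had 4 of 9 members higher (background 2.32% higher, 4.35% in either direction), namely GSTA1, GSTA2, GSTA4 and MGST1, which became 2 without medium replicate 2 or low replicate 3. Guibi-tang had 4 higher (1.86% higher, 3.6% in either direction), with GSTO1 in place of GSTA4. GSTO1 in Guibi-tang was 94.1, 97.4 and 92.2 CPM at that dose (log2 0.23, edgeR adjusted p = 0.0455), a call lost without any of the medium libraries or of low replicates 1 and 3. Polygalae Radix had 1 lower (5.09% lower, 8.41% in either direction), which was 0 without medium replicate 2 or either low library and 2 without medium replicate 3. Menthae Herba (0.118%), Saposhnikoviae Radix (0.0118%), Saengmaek-san (0%) and Soyo-san (0.00589%) had 0 by edgeR and 0 by DESeq2. At an unadjusted edgeR p under 0.05 the numbers were 3 for Menthae Herba and 2 for Saposhnikoviae Radix, and 0 for both Soyo-san and Saengmaek-san, and differences of the members lay between -0.13 and 0.27. From medium to high dose, in contrasts added after the values were seen, 9 members were lower with Polygalae Radix (59.2% of genes passed), 8 were lower with Aucklandiae Radix (68.5%), and Guibi-tang had 3 higher and 1 lower (28.6%). Of these, GSTO1 did not pass in Aucklandiae Radix without high replicate 2 (-0.22, edgeR adjusted p = 0.0619), nor the lower member of Guibi-tang, GSTK1, without high replicate 2 (-0.1, edgeR adjusted p = 0.169).

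**Figure D4:**
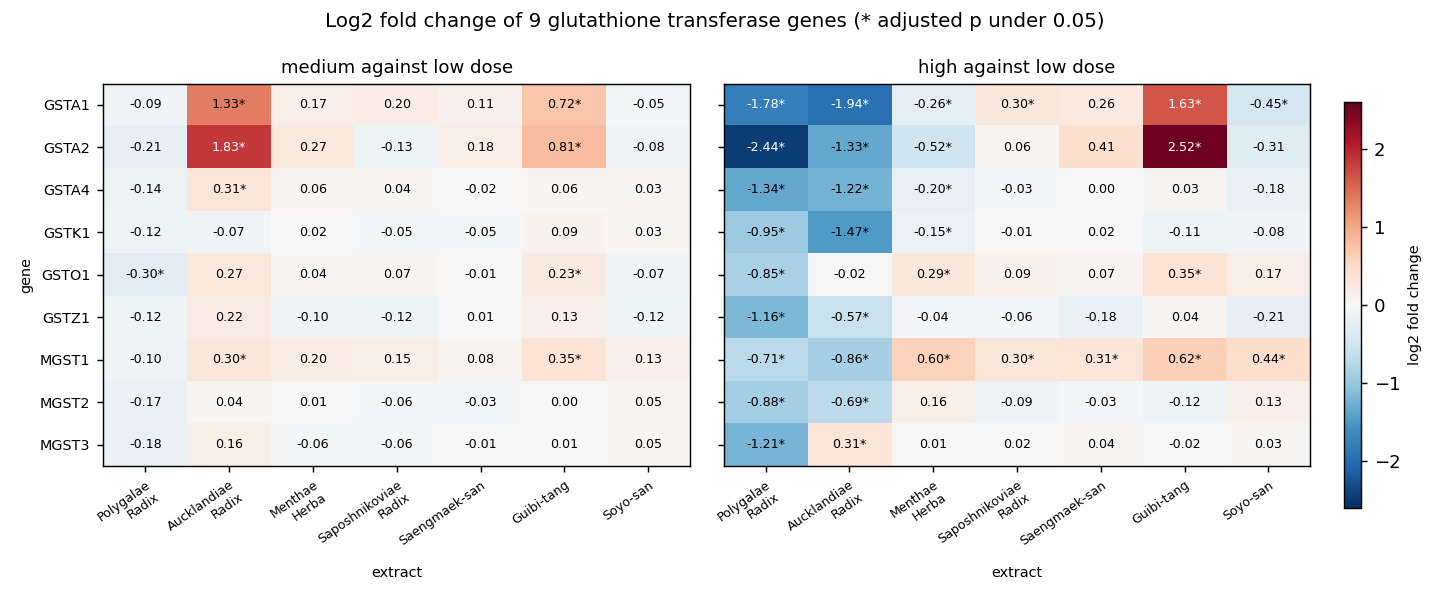
Log2 fold changes of the 9 members against the low dose of the same extract, for medium dose (left) and high dose (right), as colour and number, with a star where the edgeR adjusted p was under 0.05. The Aucklandiae Radix column changes from higher (GSTA1 1.33, GSTA2 1.83) to lower (-1.94, -1.33) between the panels, and the MGST1 line passes in every high-dose column.

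Extracts with the same set code were also compared with each other at 500 ug/mL. Guibi-tang and Saengmaek-san, both of set 13, differed in 5 of 9 members (background 33.8%). GSTA1 was higher with Guibi-tang by 1.65 (SE 0.07) and GSTA2 by 2.55 (SE 0.1), with no library overlapping. MGST1 was higher by 0.46 (SE 0.06) and GSTO1 by 0.31 (SE 0.07), and GSTK1 lower by 0.17, a call lost without replicate 2 of the Guibi-tang high dose (-0.07, edgeR adjusted p = 0.347) or Saengmaek-san high replicates 1 or 2. Menthae Herba and Saposhnikoviae Radix, both of set 12, differed in 6 of 9 (background 21.2%). With Menthae Herba, GSTA1 was lower by 0.47 (SE 0.07) and GSTA2 by 0.76 (SE 0.12), while GSTO1, MGST1 and MGST2 were higher by 0.32, 0.28 and 0.28. GSTK1 was lower by 0.17, a call lost without Menthae Herba high replicates 1 or 2 or Saposhnikoviae Radix high replicate 3, and MGST2 did not pass without Saposhnikoviae Radix high replicate 1 (0.24, edgeR adjusted p = 0.0539). MGST3 passed in neither pair, with 95% intervals of the difference of -0.11 to 0.23 (Menthae Herba against Saposhnikoviae Radix) and -0.26 to 0.09 (Guibi-tang against Saengmaek-san). The change from low to high dose itself was also compared within each pair: it differed in 4 members between Guibi-tang and Saengmaek-san (background 19.6%) and in 3 between Menthae Herba and Saposhnikoviae Radix (10.6%).

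Vehicle stood apart from treated cells even at the lowest doses. Between 33.3% and 40.1% of all genes passed the test for low dose against vehicle. Vehicle libraries carried a set code of their own, D1, so that treatment and any difference between sets cannot be told apart. Mitochondrially encoded RNA was 15.8% to 19.1% of counts in vehicle and 10.1% to 14.3% in the low doses. GSTO1 showed the difference most evenly: vehicle libraries were 44, 54.1 and 54.6 CPM, and the 8 low-dose groups averaged 76.2 to 87.3. It was higher in all 7 tested low doses, by 0.59 to 0.79, and by 0.51 to 0.7 without vehicle replicate 1, the lowest of the 3. Counts of members passing at low dose against vehicle were 4 in Polygalae Radix (background 36.1%), 6 in Aucklandiae Radix (33.3%), 9 in Menthae Herba (38%), 8 in Saengmaek-san (38.7%), 6 in Saposhnikoviae Radix (37.6%), 6 in Guibi-tang (40.1%) and 4 in Soyo-san (34.2%). GSTK1 went the other way and was lower than vehicle in 4 of these 7, at -0.13 to -0.17, and all 4 calls were lost without vehicle replicate 2 (-0.11 to -0.15, edgeR adjusted p = 0.0554 to 0.172) and 3 of them without vehicle replicate 1. A single library decided several of these counts: 2 rather than 4 members passed in Polygalae Radix without low replicate 3, 5 rather than 9 in Menthae Herba without vehicle replicate 2, and 4 rather than 8 in Saengmaek-san without low replicate 1 (5 without vehicle replicate 2 or 3). With the trend of each library on GC content and gene length removed, the counts were 3 in Menthae Herba, 3 in Saengmaek-san, 2 in Polygalae Radix and 2 in Soyo-san, and MGST1 changed sign against vehicle in 4 extracts (-0.02 to -0.06).

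At the high dose against vehicle, 8 members passed in Polygalae Radix (background 66.9%), all lower, and 8 in Aucklandiae Radix (73.3%), 2 of them higher. Guibi-tang had 6 (51%), Menthae Herba 6 (48.2%), Saposhnikoviae Radix 6 (40.1%) and Saengmaek-san 5 (40.5%). Soyo-san had 5 (38.8%), which was 2 without its high replicate 2. GSTA2 with Guibi-tang was the largest of these, at 3.38 (SE 0.1) above vehicle, from 5.32, 5.24 and 5.85 CPM. GSTA2 at the high dose of Aucklandiae Radix did not pass against vehicle (0.22, edgeR adjusted p = 0.175).

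Okbyeongpung-san, without replicates, had differences from low to high dose of 0.61 for GSTA1 and 0.65 for GSTA2, the 2 members past 1.5-fold, where 3.78% of all genes were past 1.5-fold higher. MGST1 followed at 0.58, just short of 1.5-fold. The other 6 members lay between -0.21 and 0.14.

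Of 17 other glutathione transferases and MAPEG relatives listed, 7 passed the filter. None of these 7 was higher at the high than at the low dose of any tested extract. The share of all genes that were higher ran from 0.206% (Saengmaek-san) to 33.9% (Aucklandiae Radix). With Polygalae Radix all 7 were lower, where 33% of all genes were lower. GSTM4, a mu-class enzyme, fell with Polygalae Radix (log2 -1.66), Aucklandiae Radix (-1.8), Menthae Herba (-0.24) and Guibi-tang (-0.23). GSTM2 fell in the same 4 extracts, in that order at -1.87, -1.35, -0.3 and -0.45. GSTM3, the mu-class enzyme of testis and brain, fell with Polygalae Radix (-1.02), Aucklandiae Radix (-0.2) and Guibi-tang (-0.33), and differed by 0.13 in Menthae Herba without passing. ALOX5AP, which presents arachidonic acid for leukotriene synthesis, fell with Polygalae Radix (log2 -2.29), Menthae Herba (-1.32) and Guibi-tang (-1.68). Its level was near the floor, at most 0.842 CPM in any library, and with Guibi-tang it went from 0.424 to 0.127 CPM. Its changes therefore rest on few reads. GSTT2B, GSTO2 and GSTCD passed the test with Polygalae Radix alone among these extracts, at -0.84, -1.1 and -0.29. So with Guibi-tang, where GSTA1 and GSTA2 rose, 4 of these 7 fell, ALOX5AP among them, and none rose. Of all genes, 17.5% were lower and 16.8% higher there. GSTM2 has 855 stretches of 100 bases in common with GSTM1, 28.31% of those of GSTM1, and 309 with GSTM4. GSTT2B has 78.54% of its own in common with GSTT2. The counts of these genes, GSTM1 among them, are therefore less certain.

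Genes that make and recycle glutathione were in part higher and in part lower at the high doses of Guibi-tang, Aucklandiae Radix and Polygalae Radix. Of 11 tested, 6 were higher and 4 lower with Guibi-tang (median 0.16, all genes 0), where 16.8% of all genes were higher and 17.5% lower. Among the 6, GCLM, the modifier subunit of the rate-limiting enzyme of glutathione synthesis, rose by 1.16 (SE 0.05). GCLC, its catalytic subunit, rose by 0.75, and GSR, which regenerates glutathione, by 0.68. With Aucklandiae Radix at the high dose 6 were higher and 4 lower (median 0.61, all genes 33.9% higher and 35.5% lower). GCLM rose by 2.89 and SLC7A11, the cystine importer, by 2.56, at the dose where GSTA1 fell by 1.94. With Polygalae Radix 1 was higher, GCLC at 1.19, and 6 lower (all genes 31.1% higher and 33% lower). Menthae Herba had 6 higher and 0 lower (all genes 10.8% and 12.5%), and Soyo-san 3 and 0 (2.13% and 1.83%). Saposhnikoviae Radix had 2 and 0 (0.389% and 0.442%), as did Saengmaek-san (0.206% and 0.23%). A list of 18 tested NRF2 targets, which contains GCLM, GCLC and SLC7A11 too, was chosen with earlier results of these data known. In it 17 were higher and 0 lower with Guibi-tang (median 0.82), where 16.8% of all genes were higher and 17.5% lower. With Aucklandiae Radix at the high dose 13 were higher and 4 lower (median 0.73), where 33.9% of all genes were higher and 35.5% lower. At the medium dose of Aucklandiae Radix 12 were higher and 0 lower (median 0.36, all genes 2.32% higher). Menthae Herba had 14 higher and 2 lower (median 0.5, all genes 10.8% higher and 12.5% lower), with GSTA1 and GSTA2 lower and MGST1 higher in the same libraries. Soyo-san had 10 higher and 1 lower (all genes 2.13% and 1.83%), Saengmaek-san 10 and 0 (0.206% and 0.23%), Saposhnikoviae Radix 7 and 0 (0.389% and 0.442%), and Polygalae Radix 7 and 9 (31.1% and 33%). HMOX1, which breaks down heme, rose by 3.8 with Aucklandiae Radix, and the aldo-keto reductases AKR1C1 and AKR1B10 rose by 1.64 and 1.57 with Guibi-tang.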

How the data were processed

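RNA of 60 HepG2 libraries was read as 100 bp pairs from a directional kit, per the labels' protocols. Per the submitters' processing notes, reads were handled with FastQC 0.11.9, Trim Galore 0.6.5, STAR 2.7.3a and RSEM 1.3.3 on GRCh38. The authors deposited RSEM expected counts per gene, not normalized. Which annotation release and strand setting were used is not given in the sources used here. About 10% of values were fractional, and all were rounded. GENCODE 29 matched 57055 of 60675 identifiers and gave symbols, coordinates and transcript lengths (the median of coding transcripts for levels per kb). Promoter sequences came from RefSeq (GRCh38.p14).

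Genes were tested in R 4.3.3 with edgeR 4.0.16 (TMM scaling, filterByExpr with a minimum count of 10, quasi-likelihood test) in a fit of 22 groups with 35 residual degrees of freedom. Okbyeongpung-san, with 1 library per dose, was left out of the fit. Log2 CPM used a prior count of 2. The scripts were tested on simulated data. No pair of replicate libraries matched within sampling noise (1.79 to 15.58 chi-square units per gene, 48 pairs). Same-numbered libraries of low and high dose deviated together at r = -0.11 to 0.21, so numbers were not used as pairs. The alternatives were DESeq2 1.42.0, RLE scaling, other filters, a GC and length correction, only the groups compared, a replicate block, summed GSTA counts and each library left out.

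The members, the gene lists and the tests were chosen with earlier results of these data known. All 9 members are named, as are the other transferases that passed the filter. Genes of each other list were drawn from up to 3 called genes per extract with the largest changes. Genes that followed a member were drawn from the 2 of at least 5 CPM closest to it in log2 CPM, by Pearson's r or by rank. Not every gene that met these rules is named. A list of glutathione peroxidases and glutaredoxins is left out, as are the genes closest to GSTK1, GSTZ1 and MGST2.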

Additional observations from a re-analysis of the deposited data

Results flagged for a closer look

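The change from low to high dose was compared between extracts with the same set code. In 7 cases this difference itself passed edgeR's test over all genes. Between Guibi-tang and Saengmaek-san, GSTA1 rose more with Guibi-tang by 1.37 (log2, SE 0.1, edgeR adjusted p = 3.04e-15) and GSTA2 by 2.11 (SE 0.15, edgeR adjusted p = 3.3e-15). MGST1 rose more by 0.31 (edgeR adjusted p = 0.00961) and GSTO1 by 0.28 (edgeR adjusted p = 0.0394), the latter a call lost without any of 9 of the 12 libraries, at 0.2 to 0.28. Between Menthae Herba and Saposhnikoviae Radix, the change of GSTA1 differed by -0.55 (SE 0.1, edgeR adjusted p = 8.94e-05), with a fall in the first and a rise in the second. GSTA2 differed by -0.58 (edgeR adjusted p = 0.0185), a call lost without any of 5 libraries, at -0.48 to -0.55. MGST1 differed by 0.3 (edgeR adjusted p = 0.0221), and did not pass without replicate 2 of the high or of the low dose of Saposhnikoviae Radix (0.27 in both).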

How the results depend on the processing

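All values here are numbers of the 9 members that passed the test, unless given as log2 changes. Among the alternatives run, 4 log2 changes that passed in the main or the alternative fit turned sign. Another 24 turned sign without passing in either fit. The 4 were all of MGST1 at low dose against vehicle with the GC and length trend removed. They were -0.06 with Saengmaek-san, -0.04 with Menthae Herba, and -0.02 each with Soyo-san and Saposhnikoviae Radix. With that correction, low dose against vehicle gave 2 members in Polygalae Radix, 3 in Menthae Herba, 3 in Saengmaek-san and 2 in Soyo-san. With only the groups compared in the fit, 0 passed in Polygalae Radix and 2 in Menthae Herba at medium against low dose, 2 in Saengmaek-san at high against low dose, and 5 there at low dose against vehicle. Without a filter, Menthae Herba had 1 at medium against low dose and Saengmaek-san 3 at high against low dose, where DESeq2 gave 2. With GSTA counts summed, Saposhnikoviae Radix had 1 at high against low dose. Leaving out single libraries gave 0 to 2 at medium against low dose in Polygalae Radix and 2 to 4 in Aucklandiae Radix. At high against low dose it gave 0 to 1 in Saposhnikoviae Radix, 0 to 1 in Saengmaek-san and 1 to 2 in Soyo-san. At low dose against vehicle it gave 2 to 4 in Polygalae Radix, 5 to 8 in Menthae Herba and 4 to 6 in Saengmaek-san, and at high dose against vehicle 2 to 5 in Soyo-san. The difference in dose response between Menthae Herba and Saposhnikoviae Radix kept 1 to 3. With the replicate block, members passing at high against low dose numbered 9 in Polygalae Radix, 8 in Aucklandiae Radix, 6 in Menthae Herba and 4 in Guibi-tang, and no count moved by over 1.5 times. The numbers share no stated origin, so this is no paired design. Where leaving out a library left 1 in a group, its spread was taken from the remaining groups. GSTA2 lay under 10 CPM on average in 20 of 25 groups, with standard errors up to 0.23, which limits what could be detected for it. The causes of these shifts were not tested.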

Other observations

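Genes that export glutathione conjugates or trim them to mercapturates were listed as well, 15 in all and all tested. The share of all genes that were higher and lower was 16.8% and 17.5% with Guibi-tang, 33.9% and 35.5% with Aucklandiae Radix, 31.1% and 33% with Polygalae Radix, and 10.8% and 12.5% with Menthae Herba, each at high against low dose. With Guibi-tang 7 were higher and 4 lower (median 0.1): ABCC3 and ABCC2, membrane pumps for conjugates, rose by 1.14 (SE 0.05) and 0.9 (SE 0.04), while ACY3, which removes the acetyl group from mercapturates, fell by 2.17 from 2.43 to 0.538 CPM. With Aucklandiae Radix at the high dose 5 were higher and 8 lower (median -0.2). ACY3 fell by 2.65, from 1.86 to 0.292 CPM. NAT8, which adds that acetyl group, fell by 1.92, from 0.871 to 0.228 CPM, so both were near the floor. GGT5, of the same list, rose by 1.49, from 3.02 to 8.49 CPM. With Polygalae Radix 2 were higher and 11 lower (median -1.27). Of the 4 genes of tyrosine breakdown around GSTZ1, all fell with Polygalae Radix (median -1.29), as GSTZ1 did, while all 4 rose with Menthae Herba (median 0.29), where GSTZ1 differed by -0.04. At the high dose of Aucklandiae Radix, where GSTZ1 fell too, FAH and HGD were lower (log2 -1.02 and -0.9) and TAT higher (0.61). Among 15 transcription factors named as regulators of GSTA genes, 7 were higher and 7 lower with Aucklandiae Radix at the high dose (median -0.09, all genes 33.9% higher and 35.5% lower), with MAFF, a small partner of NRF2, up by 5.07 and NR1I2, the drug receptor PXR, down to 3.16 CPM from 16.2.

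Each treated library was set against the mean of its extract's low dose, and the 57 treated libraries were compared across 10675 genes. By Pearson's r, GSTA1 followed GSTA2 most closely (0.95, rank correlation 0.85), then SULT2A1, a sulfotransferase of steroids and bile acids (0.93 and 0.82). By rank CES1 (0.89) and ERLIN1 (0.86) were closest to GSTA1. Reads that fit both GSTA1 and GSTA2 were divided between them by an estimate, and its part in their correlation was not tested. MGST1 followed ALDH1A1, an aldehyde dehydrogenase (0.95, rank 0.9), and by rank CYB5A (0.93) and NQO1 (0.9). GSTO1 followed AKR1C3 (0.93) and the peroxiredoxin PRDX1 (0.92), with rank correlations of 0.83 and 0.8. GSTA4 followed ADH6 and CYP27A1 (0.97 each), but by rank these were 0.6 and 0.63, and PON3 was closest (0.71). For MGST3 the closest genes, GNAS and ARPC3 (0.91 each), had rank correlations of 0.27 and 0.38. These values are descriptions, since libraries of an extract share its low-dose reference and all points share the same libraries.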
